A study of Mus musculus with 6 samples.

Results

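The 10 genes followed here were chosen by name from the deposited expression table: the Aurora kinases Aurka, Aurkb and Aurkc, the chromosomal passenger subunits Incenp, Birc5 and Cdca8, the kinase Plk1, and the spindle assembly factors Tpx2, Tacc3 and Ckap5. They are 10 of the 25631 genes in the table, and each of the 10 passed the filter on low values. RNA was sequenced from oocytes of naturally aged ICR mice in 3 control and 3 aminophylline libraries. The mice of both groups were 14 months old and received equine chorionic gonadotropin before oocytes were punctured from large antral follicles. Control mice drank water only. Aminophylline mice drank water with 4 mM aminophylline, a theophylline derivative that inhibits phosphodiesterases non-selectively, for 1 week and then water for 3 weeks. How many oocytes and mice went into each library is not given in the sources used here, and nothing says that the libraries came from separate mice, so the p-values measure only the spread between these libraries. No young group was sequenced here, so the values say nothing of how age itself changes these transcripts.

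Mouse oocytes have no centrosomes, and their meiotic spindle grows from many acentriolar microtubule-organizing centres (aMTOCs) that gather around the chromosomes. Aurora A (Aurka) sits on the aMTOCs and spindle poles, while Aurora B (Aurkb) and Aurora C (Aurkc) work on chromosomes as the catalytic subunit of the chromosomal passenger complex, which corrects wrong attachments of kinetochores to microtubules. Aurora C is largely a germ cell kinase and is the main passenger kinase of the oocyte. The fully grown oocyte transcribes little, so the transcripts measured here are mostly stored messages. Translation of a part of such messages is switched on during meiotic maturation, and translation was not measured here. The comparison addresses how the stored transcripts of this machinery differed between aged control and aged aminophylline mice.

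One sequence feature of stored messages is the cytoplasmic polyadenylation element (CPE), a short word near the end of the 3' untranslated region that controls poly(A) tail length and translation in maturing oocytes. The words TTTTAT and TTTTAAT were searched on the sense strand in the last 100 bases of the 3' untranslated region of 1 principal GENCODE M21 transcript per gene. They were found in 4 of the 10 genes, compared with 19.8% of 8486 tested genes with such a region. The 4 sites, all of the form TTTTAT, are shown because they include every Aurora kinase. Each is printed as 30 bases, 5' to 3' on the gene's strand of GRCm38, with the CPE in capitals.
Aurka: ttaaaggctattTTTTATgttggagttctg
Aurkb: tgaagaacaacaTTTTATaataaagtctta
Aurkc: gcttgttttctcTTTTATgaagtgatgtta
Ckap5: aatttaagagacTTTTATaaataaagtttg
The capitals lie at chr2:172356249-172356254 on the minus strand for Aurka and, on the plus strand, at chr11:69051628-69051633 for Aurkb, chr7:7003048-7003053 for Aurkc and chr2:91620637-91620642 for Ckap5. The sites began 59, 37, 44 and 28 bases before the transcript end, in the same order. A polyadenylation signal (AATAAA or ATTAAA) was found in the same window of 9 of the 10 genes, Aurka being the exception, compared with 81.4% of the tested genes. Over the whole 3' untranslated region, Tpx2 (1630 bases) held 2 CPE words, both outside the window, and Ckap5 held 3. Shares of all genes were not taken over the whole region. A match is a description of the sequence, and whether poly(A) RNA was selected for these libraries is not given in the sources used here.

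Promoters were taken from RefSeq (GRCm38.p6), from 250 bases before to 50 bases after the start site, and 7 of the 10 genes had an entry: Aurka, Aurkc, Birc5, Cdca8, Plk1, Tacc3 and Ckap5. Cell cycle genes often carry a cell cycle genes homology region (CHR), bound by complexes of the MuvB core, and CCAAT boxes, bound by NF-Y. The CHR words TTTGAA and TTTAAA, on either strand, were found in 5 of the 7 promoters, compared with 21.7% of the promoters of 8282 tested genes. CCAAT, on either strand, was found in 5 of the 7 promoters, compared with 40.1%. The CHR and CCAAT matches overlapped in Cdca8. The promoters of Aurka and Aurkc are printed below because the pair of kinases differed in this feature. Capitals mark the CHR and CCAAT words on either strand.
Aurka: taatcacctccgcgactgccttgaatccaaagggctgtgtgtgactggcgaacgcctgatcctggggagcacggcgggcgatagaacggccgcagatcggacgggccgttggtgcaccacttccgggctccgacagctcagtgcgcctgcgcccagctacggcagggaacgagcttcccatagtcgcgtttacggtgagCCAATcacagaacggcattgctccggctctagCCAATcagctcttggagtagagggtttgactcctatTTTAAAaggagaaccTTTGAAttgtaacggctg
Aurkc: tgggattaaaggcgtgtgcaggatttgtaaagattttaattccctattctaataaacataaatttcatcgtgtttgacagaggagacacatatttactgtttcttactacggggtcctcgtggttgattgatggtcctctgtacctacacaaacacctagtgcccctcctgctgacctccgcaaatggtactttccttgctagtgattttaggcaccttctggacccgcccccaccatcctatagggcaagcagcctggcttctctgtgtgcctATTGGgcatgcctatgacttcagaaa
The Aurka promoter (chr2:172370521-172370820, minus strand) held 2 CHR words and 2 CCAAT words. The Aurkc promoter (chr7:6995135-6995434, plus strand) held no CHR word and 1 CCAAT word, on the opposite strand. Plk1 held 3 CHR words, Ckap5 held 2, Birc5 and Cdca8 held 1 each, and Tacc3 held none.

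The libraries held 14112341 to 33641283 reads, with control library 2 the smallest, and the oocyte markers summed to 8691 to 13608 FPKM (fragments per kilobase of gene and per 1e+06 mapped reads) with 10 of 10 expressed. Summed markers of granulosa and cumulus cells lay between 15.8 and 23.7 FPKM. Of these markers, 3 of 12 reached 1 FPKM in at least 3 libraries. Cyp19a1 (7.37 to 15.7 FPKM) and Nr5a2 (4.43 to 8.53 FPKM) gave most of that sum. Markers of theca and stroma summed to 2.9 to 5.25 FPKM, and of erythrocytes to 0.0486 to 0.585 FPKM. Endothelium markers summed to 5.63 to 8.89 FPKM, mostly from Pecam1 (4.87 to 6.66 FPKM). Macrophage markers summed to 199 FPKM in control library 1 and to 81 to 102 FPKM in the other 5 libraries, where C1qb alone gave 79.2 to 99.8 FPKM. C1qb was not raised in control library 1 (72.3 FPKM), whereas Lyz2 was 66.4 FPKM there and 0 to 0.573 FPKM elsewhere, Tyrobp 20.3 and 0 to 0.308 FPKM, Ctss 17.1 and 0.0217 to 0.451 FPKM, and C1qc 14.8 and 0 FPKM. The part of these markers in the results was not tested. No library was removed, and values without control library 1 or another library are given where they moved most.

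Levels of the 10 genes spanned from 3.5 FPKM for Ckap5 to 477 FPKM for Birc5 as means over the 6 libraries. Birc5 (477 FPKM), Aurkc (417 FPKM), Tacc3 (269 FPKM), Cdca8 (178 FPKM) and Aurka (166 FPKM) were the most abundant, and their neighbours in this order overlapped in range. Each of these 5 genes stood at or above the 93.6th percentile of the 10340 tested genes. Plk1 (78.4 FPKM), Tpx2 (32.3 FPKM) and Aurkb (11.8 FPKM) each lay below the gene before it in every library, with no overlap of ranges. Incenp (9.24 FPKM) overlapped Aurkb, and Ckap5 lay below Incenp in 6 of 6 libraries.

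FPKM depends on the gene length used, and the lengths implied by the deposited values differed from annotated transcripts for some genes. The implied length was 3416 bases for Birc5, 3.61 times its GENCODE transcript of 947 bases. It was 17608 bases for Ckap5, 2.64 times its transcript of 6665 bases. All annotated exons of the gene together span 3402 bases for Birc5, close to its implied length, and 9462 bases for Ckap5. Per kilobase of GENCODE transcript, Birc5 had 1722 and Aurkc 440 FPKM, Aurka (196 FPKM) passed Cdca8 (178 FPKM), and Incenp (9.28 FPKM) and Ckap5 (9.25 FPKM) were level. The other places in the order were the same. These values divide all reads of a gene by the length of 1 transcript. They are too high where reads fell outside that transcript, which was not tested. The length cancels in the ratio of 1 gene's FPKM between groups, but not fully once 1 is added before the log2. The log2 fold change of Ckap5 was 0.25, and 0.32 with 0.1 added instead of 1. Exons of Cdca8 (232 bases), Plk1 (156 bases), Tacc3 (289 bases) and Ckap5 (93 bases) overlap exons of another annotated gene. The other gene lies on the opposite strand for Cdca8, Plk1 and Tacc3, and on the same strand for Ckap5. Whether strand was used in counting is not given in the sources used here, and strand could not separate the Ckap5 overlap. A part of the reads of Cdca8, Plk1, Tacc3 and Ckap5 could therefore belong to those other genes.

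**Figure D1:**
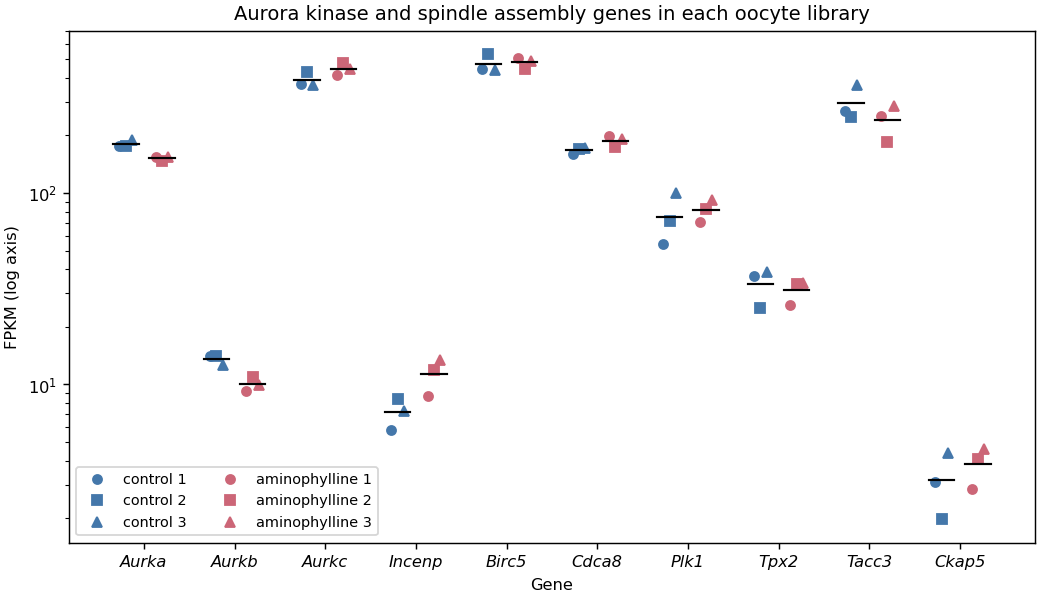
FPKM on a log axis for each of the 10 genes in each library, with control in blue, aminophylline in red, replicate numbers by symbol and black bars at the group means (n = 3 each). Birc5 and Aurkc lie highest and Ckap5 lowest, and the groups of most genes sit close together relative to the differences between genes.

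No gene of the 10 passed the test at an adjusted p under 0.05 (limma on log2(FPKM + 1), Benjamini-Hochberg over 10340 genes), and neither did any other tested gene, so 0% were called. At an unadjusted p under 0.05, 1 of the 10 genes was counted, Incenp, compared with 7.25% of all tested genes. It was higher with aminophylline, as were 4.41% of all tested genes, and no gene of the 10 was counted as lower, where 2.84% were. None of the 10 also had a fold over 1.5, compared with 3.21% of all tested genes, but Incenp lay at that limit (log2 0.58). It passed the limit with a pseudocount of 0.1 (log2 0.64) and with library weights (log2 0.71). With 1 library left out it ran from log2 0.46 to 0.75. A voom fit on reads recovered from the FPKM, chosen after seeing the data, counted Incenp alone at an unadjusted p under 0.05, compared with 7.36% of all tested genes, and put it over the fold limit (log2 0.67). The 3 control and 3 aminophylline libraries did not overlap for 4 of the 10 genes, compared with 12.5% of all tested genes. Incenp and Cdca8 were higher with aminophylline in that count, where 7.51% of all tested genes were, and Aurka and Aurkb were lower, where 4.96% were. The median log2 fold change was 0.09 over the 10 genes and 0.10 over all tested genes, and -0.01 and 0.07 without control library 1. With the replicate number as a block, 47 of all tested genes (0.455%) had an adjusted p under 0.05, none of them among the 10, and 1467 (14.2%) an unadjusted p under 0.05. The sample titles do not say what libraries of the same number share, so what the block removes is not known.

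**Figure D2:**
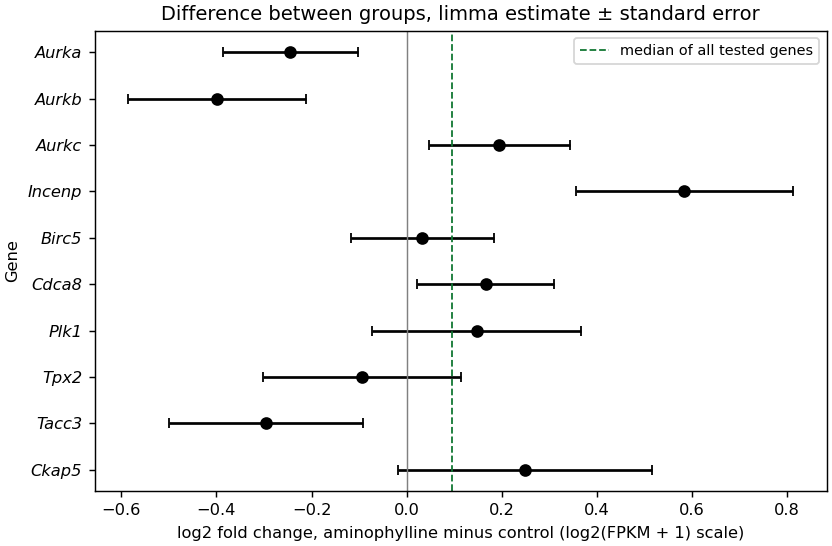
Log2 fold change of each gene, aminophylline minus control, on the log2(FPKM + 1) scale, with points at the limma estimate and bars of 1 standard error, and a dashed line at the median of all tested genes (0.10). Incenp has the highest estimate (0.58) and Aurkb the lowest (-0.40).

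The estimates of the 3 catalytic kinases had different signs, but none passed the test. Aurka (NCBI gene 20878; GRCm38 chromosome 2, 172356190 to 172370535, minus strand) encodes the pole kinase Aurora A. Its level was 176, 177 and 189 FPKM in control libraries 1 to 3 and 154, 148 and 154 FPKM in aminophylline libraries 1 to 3. The aminophylline libraries lay below the control libraries without overlap, at 152 ± 3.52 FPKM compared with 181 ± 7.29 FPKM (mean ± SD, n = 3 each). This gave a log2 fold change of -0.24 ± 0.14 (SE), with an adjusted p of 0.721 by limma.

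Aurkb (NCBI gene 20877; chromosome 11, 69045647 to 69051664, plus strand) encodes the passenger kinase used in most dividing cells, and was the scarcest of the 3 kinases. It measured 14, 14 and 12.7 FPKM in control and 9.24, 11 and 9.94 FPKM in aminophylline libraries. Again every aminophylline library lay below every control library. Means were 13.6 ± 0.73 and 10.1 ± 0.893 FPKM (SD, n = 3 each). The log2 fold change was -0.40 ± 0.19 (SE) with an adjusted p of 0.688 by limma, so the difference did not pass.

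Aurkc (NCBI gene 20871; chromosome 7, 6995300 to 7003091, plus strand) was the most abundant of the 3 kinases in all 6 libraries. Control libraries gave 372, 430 and 366 FPKM and aminophylline libraries 412, 481 and 443 FPKM. The groups overlapped, since aminophylline library 1 lay below control library 2. This gave a log2 fold change of 0.20 ± 0.15 (SE), with an adjusted p of 0.754 by limma. The change was 0.10 after quantile normalization and 0.11 after median centring. Under these scalings it was -0.295 and -0.327 for Aurka, and -0.458 and -0.481 for Aurkb. Of the 50-base stretches of the Aurkc transcript, 63.7% also occur in other genes, most often in the processed pseudogene Gm12463, and how reads matching both were counted is not given in the sources used here, so the Aurkc level is uncertain to that extent.

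The composition of the Aurora family was compared within libraries, which leaves scaling between libraries out. Aurkc made up 66.2, 69.2 and 64.4% of the summed FPKM of the 3 kinases in control and 71.6, 75.1 and 73% in aminophylline libraries. Aurka accounted for 31.3, 28.5 and 33.3% in control and 26.8, 23.1 and 25.4% with aminophylline. Aurkb accounted for 2.49, 2.25 and 2.24% in control and 1.61, 1.72 and 1.64% with aminophylline. For each kinase the shares of the 2 groups did not overlap, while the summed FPKM of the family did (562, 621 and 567 in control, 575, 640 and 607 with aminophylline). The shares of a library are parts of a whole, so these separations depend on each other. Aurka and Aurkb did not overlap as single genes either, and 12.5% of all tested genes did not.

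**Figure D3:**
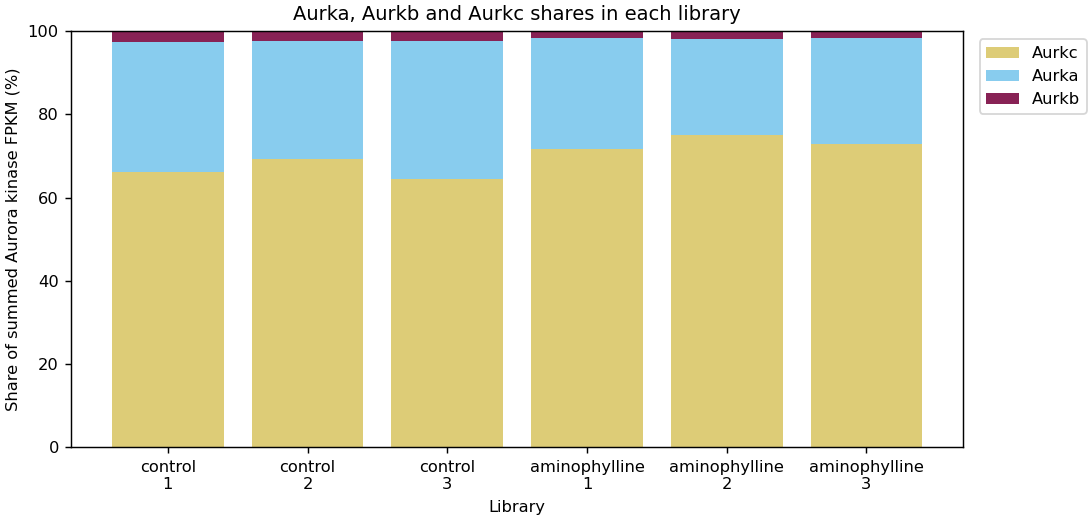
Shares of the summed FPKM of Aurka, Aurkb and Aurkc in each library, as stacked bars in percent. Aurkc takes 64.4 to 69.2% in the control libraries and 71.6 to 75.1% in the aminophylline libraries.

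Aurora B and Aurora C compete for the same place in the passenger complex, so the ratio of their transcripts was taken in each library. The ratio of Aurkc to Aurkb was 26.6, 30.7 and 28.7 in control and 44.6, 43.7 and 44.6 in aminophylline libraries. All 3 aminophylline libraries lay above all 3 control libraries. This separation is not independent of that of Aurkb alone or of the shares above. Of all tested genes, 12.5% did not overlap as single genes. The mean log2 ratio was 0.63 higher with aminophylline, a 1.55-fold difference. By a two-sided exact permutation test p was 0.1, the smallest that 3 against 3 libraries allow. With the replicate numbers taken as pairs, the permutation test gave p = 0.25, the smallest that 3 pairs allow. Leaving out any 1 library gave differences of 0.58 to 0.68 on the log2 scale. The ratio carries the uncertainty of the Aurkc pseudogene.

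The 3 structural subunits of the passenger complex were measured at very unequal levels. Incenp (NCBI gene 16319; chromosome 19, 9872296 to 9899551, minus strand) encodes the scaffold that binds and activates Aurora B or C. Its level was 5.81, 8.44 and 7.27 FPKM in control and 8.69, 11.9 and 13.4 FPKM in aminophylline libraries. The lowest aminophylline value lay just above the highest control value. Means were 7.17 ± 1.32 and 11.3 ± 2.39 FPKM (SD, n = 3 each), and the log2 fold change was 0.58 ± 0.23 (SE), the highest of the 10. Its unadjusted p was 0.0272 and its adjusted p 0.682 by limma. The unadjusted p was 0.0923 without control library 1, 0.0905 without aminophylline library 2 and 0.122 without aminophylline library 3. It was 0.0171 without control library 2, 0.037 without control library 3 and 0.0159 without aminophylline library 1. With the replicate block and with library weights it was 0.00804 and 0.00585, with adjusted p of 0.192 and 0.145 by limma.

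Birc5 (NCBI gene 11799; chromosome 11, 117849251 to 117855743, plus strand) encodes survivin, which brings the complex to centromeric chromatin. It measured 446, 530 and 442 FPKM in control and 508, 447 and 492 FPKM with aminophylline. The groups overlapped fully. Its log2 fold change was 0.03 ± 0.15 (SE), with an adjusted p of 0.965 by limma, and its sign turned under other scalings of the libraries (-0.01 as TPM, -0.07 after quantile normalization and -0.05 after median centring). Cdca8 (NCBI gene 52276; chromosome 4, 124918465 to 124939311, minus strand) encodes borealin, the partner of survivin and INCENP in the complex. It measured 161, 170 and 172 FPKM in control and 198, 175 and 192 FPKM with aminophylline. Its groups did not overlap, by a narrow margin between 172 and 175 FPKM. On the log2 scale the difference was 0.17 ± 0.14 (SE), with an adjusted p of 0.768 by limma.

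Plk1 (NCBI gene 18817; chromosome 7, 122159439 to 122169873, plus strand) encodes the Polo-like kinase that is activated by Aurora A and helps aMTOCs to mature and fragment. It measured 54.5, 71.3 and 100 FPKM in control and 70.4, 82.1 and 91.9 FPKM with aminophylline. The control libraries spanned the whole range of the aminophylline libraries. Its log2 fold change was 0.15 ± 0.22 (SE), with an adjusted p of 0.864 by limma, and it was -0.06 without control library 1 and 0.37 without control library 3. Of its 50-base stretches, 6.84% also occur in other genes, most often in the pseudogene Plk-ps1.

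Tpx2 (NCBI gene 72119; chromosome 2, 152847964 to 152895321, plus strand) encodes the Ran-regulated factor that binds and activates Aurora A on microtubules. It measured 36.8, 25.1 and 38.7 FPKM in control and 26, 33.3 and 33.7 FPKM with aminophylline. The groups overlapped, with control library 2 the lowest of all 6. The log2 fold change was -0.09 ± 0.21 (SE), with an adjusted p of 0.915 by limma, and it was 0.02 without control library 3, 0.02 without aminophylline library 1 and -0.28 without control library 2.

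The ratio of Tpx2 to its kinase Aurka was 0.209, 0.142 and 0.205 in control and 0.169, 0.225 and 0.219 with aminophylline. The groups overlapped. The mean log2 ratio differed by 0.15, with p = 0.5 by a two-sided exact permutation test and p = 0.75 with the replicate numbers as pairs. It differed by -0.03 without control library 2.

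Tacc3 and Ckap5 encode a pair of microtubule-stabilizing proteins that bind each other, TACC3 being phosphorylated by Aurora A and CKAP5 (chTOG) being a microtubule polymerase. Tacc3 (NCBI gene 21335; chromosome 5, 33658128 to 33678995, plus strand) measured 269, 251 and 368 FPKM in control and 254, 186 and 284 FPKM with aminophylline. The highest value was in control and the lowest with aminophylline, but the groups overlapped. The log2 fold change was -0.295 ± 0.20 (SE), with an adjusted p of 0.728 by limma, and it was -0.12 without aminophylline library 2 and -0.13 without control library 3. Ckap5 (NCBI gene 75786; chromosome 2, 91526762 to 91620664, plus strand) measured 3.08, 1.97 and 4.4 FPKM in control and 2.85, 4.08 and 4.62 FPKM with aminophylline. These groups overlapped too. The log2 fold change was 0.25 ± 0.27 (SE), with an adjusted p of 0.805 by limma, and it was 0.03 without control library 2 and 0.46 without control library 3.

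The ratio of Tacc3 to Ckap5 was 87.3, 127 and 83.6 in control and 89.1, 45.7 and 61.5 with aminophylline. Aminophylline libraries 2 and 3 lay below all control libraries, and aminophylline library 1 lay among them. The mean log2 ratio differed by -0.63, with p = 0.3 by a two-sided exact permutation test and p = 0.5 with the replicate numbers as pairs. It differed by -0.40 to -0.88 when any 1 library was left out.

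**Figure D4:**
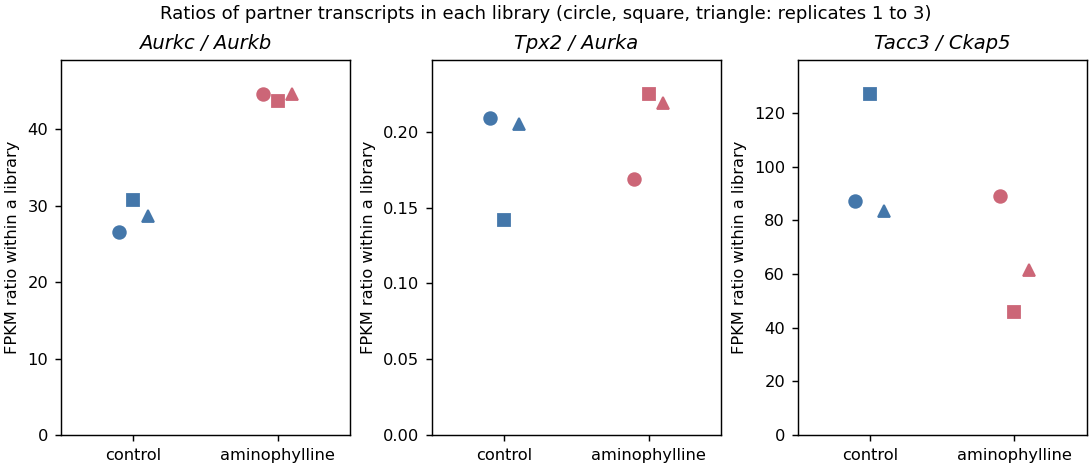
Ratios of FPKM within each library for Aurkc to Aurkb, Tpx2 to Aurka, and Tacc3 to Ckap5, with 1 point per library and axes from 0. The Aurkc to Aurkb ratio is 26.6 to 30.7 in control and 43.7 to 44.6 with aminophylline, and the groups of the other pair of ratios overlap.

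The wider machinery around these genes was described by 5 lists that held 62 other spindle genes, of which 55 were tested. None had an adjusted p under 0.05. At an unadjusted p under 0.05 there were 4 of the 55, compared with 7.25% of all tested genes, and 11 with the replicate block, where the share of all tested genes was 14.2%. The median log2 fold change over the 55 genes was 0.06. In 6 of the 55 genes the libraries of the groups were fully apart, 4 higher and 2 lower with aminophylline, compared with 12.5% of all tested genes.

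Augmin, the 8-subunit complex that branches new microtubules from existing ones, had all 8 subunits tested and a median log2 fold change of 0.20. Haus8, the subunit that binds microtubules, measured 33.3, 45.4 and 48.3 FPKM in control and 62.5, 61.9 and 80.8 FPKM with aminophylline. Haus4, another subunit, measured 35.6, 44.7 and 58.6 FPKM in control and 68.7, 70.5 and 73.2 FPKM with aminophylline. Both genes were higher in every aminophylline library than in any control library. The log2 fold changes were 0.69 ± 0.19 (SE) for Haus8 and 0.63 ± 0.19 for Haus4, with adjusted p of 0.651 and 0.661 by limma. With the replicate block the adjusted p were 0.0768 and 0.104. Haus3, the most abundant subunit, had the opposite sign, at 355, 166 and 333 FPKM in control and 200, 179 and 225 FPKM with aminophylline. Its groups overlapped, and its log2 fold change was -0.425 ± 0.26 (SE), with an adjusted p of 0.728 by limma. Over the 8 subunits, 5 had a higher and 3 a lower mean on the log2 scale with aminophylline. Of the 10340 tested genes, 6702 had a higher mean, and their median log2 fold change as a whole was 0.10.

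Of the Ran cycle and the spindle factors it controls, 10 of 10 genes were tested, with a median log2 fold change of 0.12. Kpna2, an importin alpha that holds TPX2 inactive until Ran-GTP releases it, was the only one with an unadjusted p under 0.05. It measured 1146, 907 and 956 FPKM in control and 644, 645 and 618 FPKM with aminophylline, with a log2 fold change of -0.65 ± 0.15 (SE) and an adjusted p of 0.651 by limma. The aminophylline libraries lay below the control libraries without overlap. With the replicate block the adjusted p of Kpna2 was 0.0569 by limma, lower than those of Haus8 and Haus4. Ran itself averaged 109 FPKM in both groups.

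Among clathrin, the TACC3 partners and proteins of the spindle domain, 10 of 11 genes were tested and the median log2 fold change was 0.27. Clta, a clathrin light chain, measured 23.2, 24.7 and 28.9 FPKM in control and 32.6, 29.3 and 44.5 FPKM with aminophylline. Kiz, a centrosomal protein stabilizing spindle poles, was the other gene of the list with no overlap, and was named after its values were seen. It averaged 3.32 ± 0.173 and 3.68 ± 0.0342 FPKM (SD, n = 3 each). Its log2 fold change was 0.115 ± 0.199 (SE), with an adjusted p of 0.887 by limma. The log2 fold change of Clta was 0.44 ± 0.20 (SE), with an unadjusted p of 0.0485 and an adjusted p of 0.685 by limma, and the change was 0.27 without aminophylline library 3.

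Of the aMTOC and gamma-tubulin ring complex genes, 13 of 16 were tested, with a median log2 fold change of 0.03. None had an unadjusted p under 0.05, and the groups overlapped for each of the 13. The smallest p belonged to Pcnt, which encodes the aMTOC scaffold pericentrin, and to Mzt1, a small subunit of the gamma-tubulin ring complex. Pcnt averaged 6.27 ± 2.41 FPKM in control and 9.48 ± 3.1 FPKM with aminophylline (SD, n = 3 each), and its adjusted p was 0.71 by limma. Mzt1 averaged 25.7 ± 7.3 and 18.5 ± 2.72 FPKM, and its adjusted p was 0.713 by limma.

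Among regulators and substrates of the Aurora kinases and PLK1, 14 of 17 genes were tested, with a median log2 fold change of 0.00, and none had an unadjusted p under 0.05. That median was -0.18 without control library 2 and 0.21 without control library 3. Ppp6c, the catalytic subunit of the phosphatase that switches Aurora A off, averaged 3.51 ± 0.817 FPKM in control and 2.48 ± 0.358 FPKM with aminophylline (SD, n = 3 each), with an adjusted p of 0.728 by limma. Racgap1, a subunit of centralspindlin, averaged 26.4 ± 1.35 and 22.3 ± 2.2 FPKM, and its groups did not overlap. Its adjusted p was 0.742 by limma. Bora, the cofactor through which Aurora A activates PLK1, averaged 21.2 ± 2.71 and 20 ± 2.53 FPKM, and Cpeb1, which binds the CPE, averaged 26.2 ± 11.1 and 31.4 ± 8.21 FPKM.

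**Figure D5:**
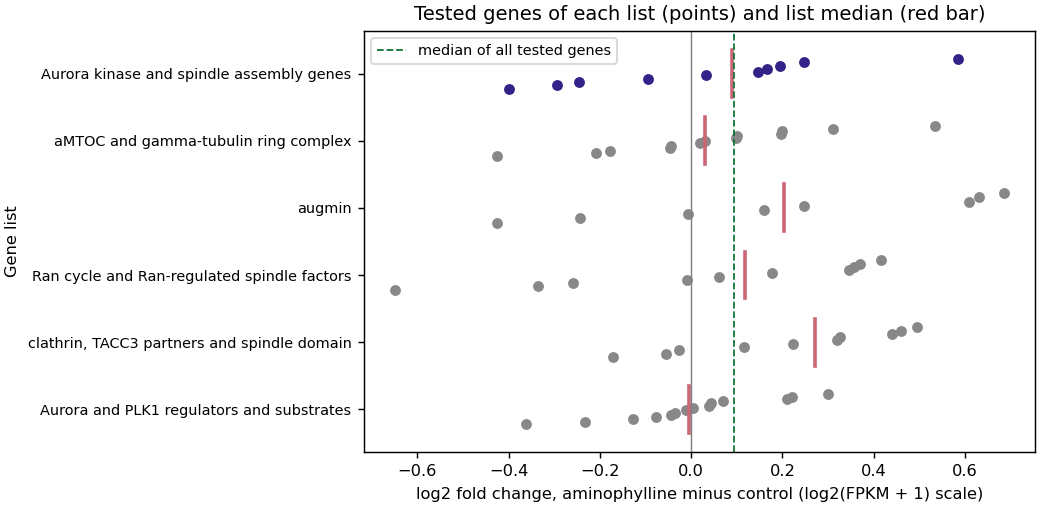
Log2 fold change, aminophylline minus control, of each tested gene of the 10 named genes and of the 5 other lists, with a red bar at each list's median and a dashed line at the median of all tested genes. List medians run from about 0 for the Aurora and PLK1 regulators to 0.27 for clathrin and the TACC3 partners, and each list holds genes on both sides of 0.

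The genes with a pattern most like Aurka across the 6 libraries, by Pearson correlation of log2(FPKM + 1) among 10330 genes, were Uros (r = 0.994), which encodes a heme synthesis enzyme, Fbxo25 (r = 0.989), which encodes an F-box protein, and Pip4p2 (r = 0.978), which encodes a lipid phosphatase. These correlations are descriptive, rest on the same 6 libraries that form 2 separate groups for Aurka, and were picked as the highest of many, 29 genes having an r of at least 0.95. Uros measured 1.84, 1.83 and 1.92 FPKM in control and 1.55, 1.5 and 1.56 FPKM with aminophylline. Its adjusted p was 0.804 by limma.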

How the data were processed

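The deposited table gives FPKM per gene for 6 mouse oocyte libraries, made by the authors. GRCm38 and mm10 are named in the submitters' processing notes, and the aligner and counter are not given in the sources used here. For 99.991% of 22583 genes above 0 in at least 2 libraries, the FPKM steps gave whole reads (tolerance 0.001), from which library totals and gene lengths were taken, and a count of 3 reads corresponded to 0.0892 to 0.213 RPM (reads per 1e+06), for counting error only. Genes reaching 1 FPKM in 3 or more of the 6 libraries were tested on log2(FPKM + 1), so fold changes of low genes are understated, with limma 3.58.1 (variance trend, R 4.3.3), group as the only term, Benjamini-Hochberg adjustment, and passing set at an adjusted p under 0.05. Ratios were tested by exact permutation of the libraries, and again with the replicate numbers as pairs (scipy 1.17.1).

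The members and lists were chosen with earlier results of these data known. Of each other list, genes with an unadjusted p under 0.05 were named, or the 2 with the smallest p, and the 3 genes closest to Aurka. Ran, Bora, Cpeb1, Kiz and Haus3 were added after their values were seen. Gene positions, transcript lengths and 3' ends are from GENCODE M21 on GRCm38, and promoters from RefSeq. Replicate numbers come from the sample titles, which do not say what the numbers share. After subtraction of the group mean, control and aminophylline libraries with the same number correlated at 0.138, 0.140 and 0.552, so the block on replicate number was treated as a pairing, although control library 2 correlated more with aminophylline library 1 (0.423) than with its own number.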

Additional observations from a re-analysis of the deposited data

How the results depend on the processing

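Of 159 values of the 10 genes under 16 alternatives, 0 had an adjusted p under 0.05. The replicate block gave 47 of all tested genes at an adjusted p under 0.05, compared with 0 without it, and at an unadjusted p under 0.05 it gave 1467 of all tested genes (750 without it) and 11 of the other spindle genes (4 without it). It changed no other call. Among the 10 genes, 1 had an unadjusted p under 0.05, compared with 3 with no filter on low values, 2 after quantile normalization, 2 after median centring, 2 with unmoderated variances, and 0 to 1 when 1 library was left out (0 without control library 1, aminophylline library 2 or aminophylline library 3). With no filter these were Incenp, Aurka and Aurkb, under both scalings Incenp and Aurkb, and with unmoderated variances Aurka and Aurkb, Incenp then having an unadjusted p of 0.055. For all tested genes the count was 1404 with no filter, 2011 with library weights and 316 to 1593 with 1 library left out, and for the other spindle genes it was 13 with library weights and 3 to 14 with 1 library left out (7 without control library 2, 14 without control library 3).

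The sign of the log2 fold change turned for Birc5 (-0.011 as TPM, -0.068 after quantile normalization, -0.049 after median centring, -0.013 to 0.117 with 1 library left out), for Plk1 (-0.060 to 0.372 with 1 library left out) and for Tpx2 (-0.284 to 0.024 with 1 library left out). The log2 difference of the ratio of Tpx2 to Aurka ran from -0.032 to 0.282 with 1 library left out. The cause was not tested. The tests planned on whole counts by negative binomial models were not run, because the deposited unit is FPKM. A voom fit on the recovered reads and levels per GENCODE transcript length were chosen after seeing the data, and the voom fit gave 761 of all tested genes at an unadjusted p under 0.05. Aurkb and Incenp had the fewest reads among the kinases and passenger subunits, 430 to 1024 and 387 to 1328 per library. With 1 library left out, list medians of the log2 fold change ran from -0.081 to 0.166 (aMTOC), 0.085 to 0.443 (augmin), 0.032 to 0.290 (Ran) and 0.117 to 0.437 (clathrin), with control libraries 2 and 3 giving the lowest and highest, except that the clathrin minimum was without aminophylline library 3.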
